A study of Homo sapiens with 132 samples.

Results

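This report compares MKN1 cells treated for 24 h with trastuzumab + afatinib and with trastuzumab alone. Its members are 6 of the 132 RNA sequencing libraries of the series, chosen by their labels: cell line MKN1, time 24 h, 3 libraries of cells treated with trastuzumab + afatinib and 3 of cells treated with trastuzumab. MKN1 is an established gastric cancer cell line grown from a metastatic site, and it is a single line that was plated on plastic. Both groups received trastuzumab (5 µg/ml), and the first also received afatinib (0.5 µM). The other 15 libraries of MKN1 cells at 24 h (untreated, EGF, EGF + cetuximab, cetuximab and afatinib alone, 3 each) entered the model to estimate the spread, and afatinib alone and untreated cells gave a second afatinib effect that shares no library with the first. No library is labelled as a solvent control, so afatinib and its solvent cannot be told apart in these libraries. The study describes a control with the solvent DMSO that was included when selected genes were checked by qPCR. It also cites earlier western blots in which DMSO had minor effects compared with afatinib. The replicate number was used as a pair, and the labels do not say that the replicates came from separate cultures, although the study's methods speak in general of independent experiments. P-values measure the spread between these libraries, which may be technical.

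The HER family holds 4 receptor tyrosine kinases (EGFR, ERBB2, ERBB3 and ERBB4) that pair on the cell surface when ligands such as amphiregulin or epiregulin bind, and that signal through RAS and the MAP kinases ERK1 and ERK2 and through PI3K and AKT. Trastuzumab is an antibody against the outer part of ERBB2. Afatinib is a small molecule that binds irreversibly in the kinase pocket of EGFR, ERBB2 and ERBB4. ERK signalling induces transcription factors of the EGR, FOS and ETS families within minutes to hours, and these in turn drive brakes on the same pathway, among them the dual specificity phosphatases, Sprouty and SPRED proteins. PI3K and AKT keep FOXO transcription factors out of the nucleus.

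Depth ranged from 43836283 to 52372668 gene counts in the 6 libraries. The limit of 3 counts, taken as the smallest level a library can show, was worth 0.0573 CPM (counts scaled to a common library size) at the highest and 0.0684 CPM at the lowest depth, which covers counting error only. The epithelial label was checked with 8 markers, all of which were above 1 CPM in every library, with summed levels of 19263 to 21139 CPM after trastuzumab and 13691 to 16598 CPM after trastuzumab + afatinib. Of 13 markers of blood, endothelial and stromal cells, 6 or 7 were above 1 CPM in each library. Among them were PECAM1 (9.75 to 26.5 CPM), COL1A1 (13.9 to 29.1 CPM) and VWF (1.24 to 1.72 CPM). The T cell gene CD3E had at most 1 count and PTPRC at most 11 counts. The summed level was 136 to 189 CPM after trastuzumab and 314 to 385 CPM after trastuzumab + afatinib. Most of this sum was LUM, and the part of these markers in the results below was not tested. The counts list 1970 of 19674 protein-coding genes at 0 in all 132 libraries, among them genes that most cells use, such as JUNB, DUSP1, XBP1 and HLA-B, and no statement is made about them.

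Among the genes with the largest falls after afatinib on top of trastuzumab were feedback genes (SPRY4, DUSP6), transcription factors (EGR1, ETV5) and ligands (AREG, EREG) of the EGFR pathway, and the largest rises were those of SELENOP, KANK4 and GPNMB. A gene was called regulated when its Benjamini-Hochberg adjusted p in edgeR's quasi-likelihood test was below 0.05 and its log2FC was above 1 or below -1. Of 19426 genes tested, 945 (4.86%) were regulated, 729 (3.75%) higher and 216 (1.11%) lower after trastuzumab + afatinib than after trastuzumab. With scaling by library size alone, 1237 genes were regulated, 88.1% of them higher in place of 77.1%, and the median log2FC of all genes moved from 0.03 to 0.16. Without replicate 3 the count fell to 464 (338 higher, 126 lower). By adjusted p alone 38.5% of the genes differed, and 3810 (19.6%) were higher and 3661 (18.8%) lower. The libraries of both groups did not overlap for 887 of the 945 regulated genes, where 41.8% of all genes tested showed no overlap. As the calls came from the same libraries, this separation adds no support. The regulated genes included 596 protein-coding genes, and the higher ones also 139 lincRNA and 71 antisense genes. Many of them were low: 31.4% of the higher and 45.4% of the lower genes had a mean log2 CPM above 1, against 66.2% of all genes tested.

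**Figure D1:**
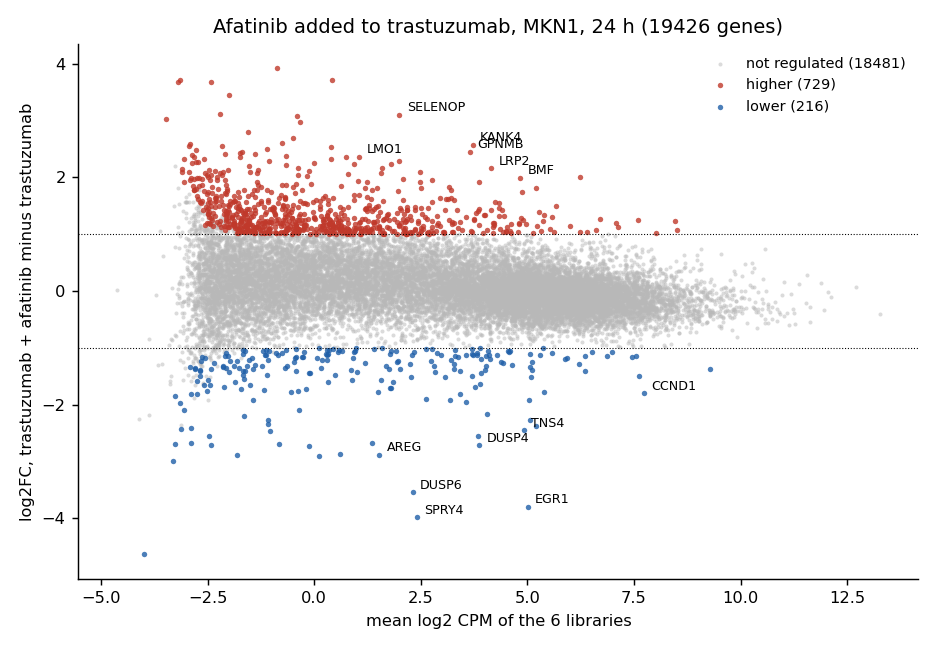
The log2FC between trastuzumab + afatinib and trastuzumab (vertical axis) is plotted against the mean log2 CPM of the 6 libraries (horizontal axis) for 19426 genes, with the 729 higher genes in red, the 216 lower genes in blue and dotted lines at a log2FC of 1 and -1. The lower genes of largest change (SPRY4, EGR1, DUSP6) lie at middle levels, and the higher genes are densest at low levels.

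The drug targets themselves were not regulated. ERBB2 was at 178, 179 and 163 CPM in the trastuzumab libraries and at 165, 143 and 166 CPM in the trastuzumab + afatinib libraries (log2FC -0.14 ± 0.07 SE, adjusted p = 0.150). EGFR was at 325, 243 and 248 CPM and at 269, 248 and 180 CPM (log2FC -0.23 ± 0.10 SE, adjusted p = 0.0816). In both genes the libraries of the groups overlapped. ERBB3, whose kinase domain is weak and which signals through its partners, had a log2FC of 0.18 ± 0.10 SE (adjusted p = 0.148). ERBB4 lay between 0.541 and 1.06 CPM in the 6 libraries and had a log2FC of -0.50 ± 0.36 SE (adjusted p = 0.296).

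Among 10 ligand genes of the family, 3 were regulated lower and 1 higher, where 1.11% and 3.75% of all genes tested were. AREG, which encodes amphiregulin, was at 3.11, 7.30 and 17.2 CPM after trastuzumab and at 1.03, 1.16 and 1.09 CPM after trastuzumab + afatinib (log2FC -2.88 ± 0.32 SE, adjusted p = 5.62e-06). EREG, its neighbour on chromosome 4 that encodes epiregulin, was at 17.8, 28.2 and 78.2 CPM and at 8.33, 8.13 and 8.01 CPM (log2FC -2.16 ± 0.34 SE, adjusted p = 9.76e-05). HBEGF, the heparin-binding ligand, was at 11.5, 20.3 and 31.9 CPM and at 7.0, 6.0 and 4.58 CPM (log2FC -1.81 ± 0.30 SE, adjusted p = 0.000157). All 3 trastuzumab + afatinib libraries lay below all trastuzumab libraries for each of these ligands, and the third replicate was the highest of the trastuzumab libraries each time. The opposite direction was seen for NRG4, a ligand of ERBB4, which rose from 1.57 ± 0.20 to 4.31 ± 0.63 CPM (mean ± SD, n = 3 libraries each; log2FC 1.44 ± 0.16 SE). BTC, EGF and NRG1 were higher by adjusted p with log2FC of 0.81, 0.86 and 0.58. TGFA (log2FC -0.09) did not pass the test. The median log2FC of the ligand list was 0.15, and it changed sign in 4 of 15 alternatives, for example -0.09 without replicate 1.

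Of 9 phosphatases that remove phosphate from MAP kinases, 6 were lower by adjusted p, where 18.8% of all genes were. Of these 6, 3 were past the log2FC limit, where 1.11% of all genes tested were regulated lower, and 1 of the 9 was higher. DUSP6, a cytoplasmic phosphatase selective for ERK (chr12:89347232-89353271, GRCh38), was at 6.44, 14.6 and 40.9 CPM after trastuzumab and at 1.49, 1.68 and 1.40 CPM after trastuzumab + afatinib (log2FC -3.54 ± 0.41 SE, adjusted p = 7.5e-06). DUSP4, an ERK phosphatase of the nucleus, fell from 40.3 ± 20.3 to 5.89 ± 1.05 CPM (log2FC -2.72 ± 0.24 SE). DUSP5, a further nuclear ERK phosphatase, was at 15.7, 23.1 and 39.4 CPM and at 15.4, 8.99 and 9.68 CPM (log2FC -1.15 ± 0.25 SE), so its first pair hardly differed. Without replicate 3 the log2FC of DUSP5 was -0.67 and it was no longer regulated (adjusted p = 0.067). DUSP16, which acts on JNK and p38, was higher with a log2FC of 0.47. The median log2FC of the list was -0.83, where that of all genes tested was 0.03.

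The Sprouty and SPRED proteins and ERRFI1 restrain receptor and RAS signalling. In this group 4 of the 13 genes tested were regulated, all lower, where 1.11% of all genes tested were regulated lower. SPRY4 (chr5:142310427-142326455) had the largest fall of the genes above that mean level of 1 log2 CPM, at 8.45, 19.4 and 47.1 CPM after trastuzumab and 1.31, 1.59 and 1.28 CPM after trastuzumab + afatinib (log2FC -3.99 ± 0.43 SE, adjusted p = 4.9e-06). SPRED1, SPRED2 and ERRFI1, the last of which binds and blocks the EGFR kinase, fell by 1.44, 1.25 and 1.40 on the log2 scale. SPRY2 and SPRY1 were lower by adjusted p with log2FC of -0.94 and -0.36, and SPRED3, SPRY3 and CBLB were higher with 0.52, 0.53 and 0.67. Over the 3 libraries of each group, ERRFI1 had an SD of 25.4 CPM after trastuzumab and of 2.72 CPM after trastuzumab + afatinib, and SPRED2 of 11.2 and 1.95 CPM. Over all 216 lower genes, the third replicate held the highest of the trastuzumab levels in 143 (66.2%), and it held the highest of the untreated levels in 142.

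Transcription factors that ERK induces were the list with the lowest median log2FC, -0.92. Of 20 genes tested, 16 were lower by adjusted p, 9 of them past the log2FC limit, and 3 were higher. Of all genes tested, 18.8% were lower and 19.6% higher by adjusted p, and 1.11% were lower past the limit. EGR1 (chr5:138465490-138469315), a zinc finger factor that is among the first genes induced by growth factors, was at 69.4, 87.6 and 268 CPM after trastuzumab and at 8.98, 10.0 and 7.62 CPM after trastuzumab + afatinib (log2FC -3.80 ± 0.32 SE, adjusted p = 1.01e-06). Its relatives EGR3, EGR2 and EGR4, at means of 3.35, 1.43 and 1.25 CPM after trastuzumab, fell by 2.92, 2.70 and 1.78 on the log2 scale. The ETS factors ETV5 and ETV1, which ERK both induces and activates, fell by 2.55 and 1.91, from 36.2 ± 14.6 to 5.98 ± 0.67 CPM and from 12.9 ± 7.14 to 3.18 ± 0.40 CPM. FOSL1, the FOS relative that is stable while ERK is active, was at 38.9, 75.3 and 120 CPM and at 20.2, 16.4 and 11.3 CPM (log2FC -2.28 ± 0.33 SE). IER3 fell by 1.64 on the log2 scale. MYC, the regulator of growth and ribosome genes, went from 19.0 ± 5.89 to 9.30 ± 1.45 CPM (log2FC -1.03 ± 0.19 SE), close to the limit, with a log2FC of -0.67 (adjusted p = 0.0057) without replicate 3. FOS, JUN, ATF3 and IER5 were lower with log2FC between -0.94 and -0.66, and ETS1, FOSL2 and JUND were higher with 0.27, 0.39 and 0.26.

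Further genes with large falls were named for the size of their change or as members of other lists. CCND1, the cyclin that opens the G1 phase, was at 335, 368 and 501 CPM after trastuzumab and at 136, 130 and 83.0 CPM after trastuzumab + afatinib (log2FC -1.80 ± 0.21 SE, adjusted p = 7.97e-06), and no library of one group reached the range of the other. PHLDA1 fell by 1.93 on the log2 scale. TNS4, a focal adhesion protein of the tensin family, was at 32.6, 66.7 and 145 CPM and at 13.8, 11.3 and 15.3 CPM (log2FC -2.45 ± 0.31 SE). AC018629.1 (chr17:40473554-40475289), an unnamed transcript that lies just below the lowest coordinate of TNS4 (40475828), fell by 2.69. AC010735.2 is a lincRNA whose lowest coordinate on chromosome 2 is 226800146, just above the highest coordinate of IRS1 (226799759). AC010735.2 fell by 1.95, while IRS1 had a log2FC of -0.99. These are chromosome positions and do not regard the strand of the genes. MYEOV fell from 87.1 ± 26.2 to 16.4 ± 3.71 CPM (log2FC -2.39 ± 0.20 SE). EPHA2, an ephrin receptor, and F3, tissue factor, fell by 1.5 and 1.40. Of 10 target genes of YAP, 3 were regulated, all lower, where 1.11% of all genes tested were regulated lower. CTGF, ANKRD1 and CYR61 fell by 1.52, 1.21 and 1.14. Without replicate 3 the log2FC of CYR61 was -0.87 and 2 of the 3 stayed regulated.

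**Figure D2:**
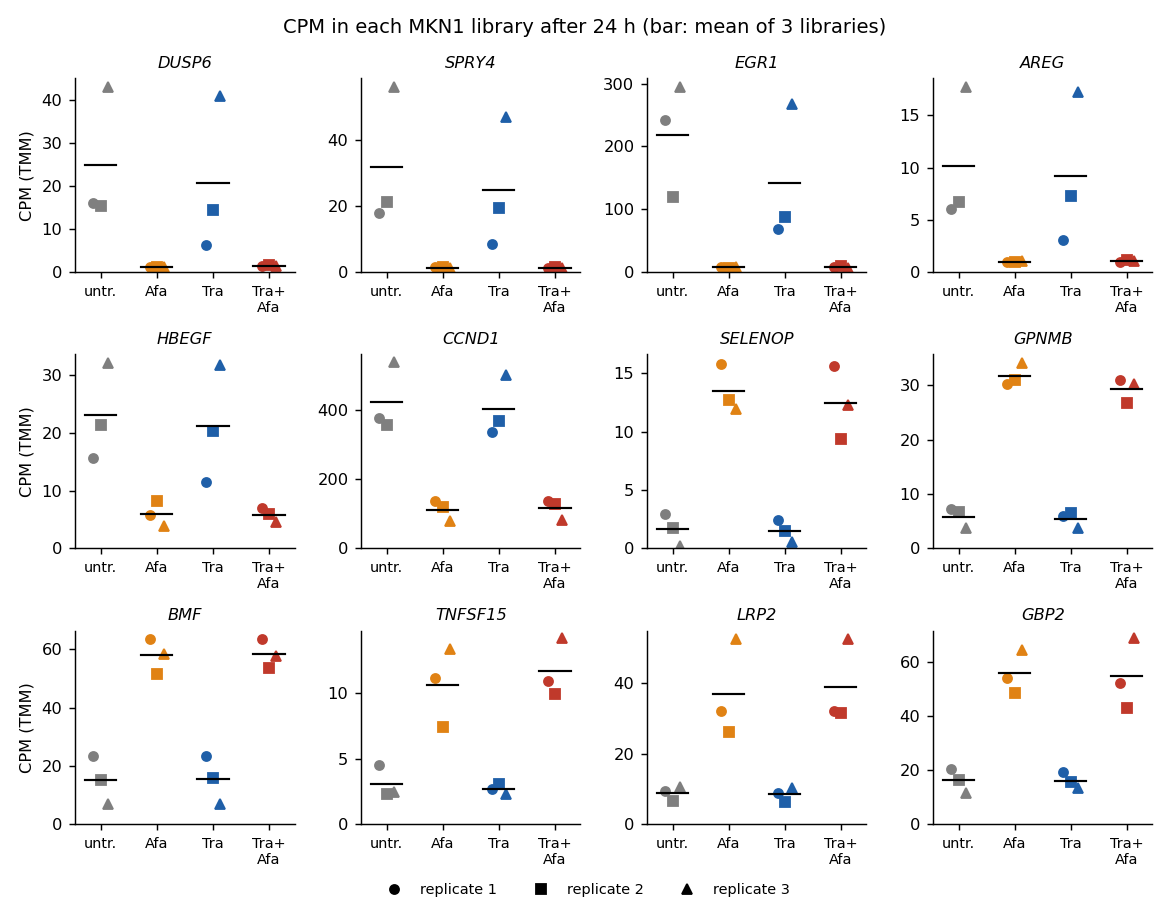
TMM-normalized CPM (vertical axes, from 0) of 12 genes in each MKN1 library at 24 h after no treatment, afatinib, trastuzumab or trastuzumab + afatinib; symbols mark the replicate number and bars the mean of 3 libraries. For DUSP6 the trastuzumab libraries lie at 6.44, 14.6 and 40.9 CPM and the trastuzumab + afatinib libraries between 1.40 and 1.68 CPM.

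The rises were led by genes with varied roles. SELENOP, which encodes the secreted selenium carrier selenoprotein P (chr5:42799880-42887392), was at 2.46, 1.53 and 0.530 CPM after trastuzumab and at 15.6, 9.35 and 12.3 CPM after trastuzumab + afatinib (log2FC 3.11 ± 0.35 SE, adjusted p = 6.57e-06). KANK4, a regulator of actin and adhesion, was at 9.58, 5.29 and 2.92 CPM and at 41.6, 28.8 and 29.1 CPM (log2FC 2.57 ± 0.24 SE). GPNMB, a membrane glycoprotein of lysosomes and melanosomes, was at 5.95, 6.57 and 3.79 CPM and at 31.0, 26.8 and 30.3 CPM (log2FC 2.45 ± 0.19 SE, adjusted p = 4.89e-07). No library of one group overlapped with the other for any of the 12 genes that rose most, which were taken from those whose mean log2 CPM exceeded 1. These genes were chosen from the same libraries for a large change in 1 direction, so this adds no support. Of all genes tested, 41.8% showed no overlap. LMO1, a LIM domain partner of transcription factors, and POU2F3, the master factor of tuft cells, rose by log2FC of 2.36 and 2.29 from levels of 0.94 and 1.79 CPM. NPNT, the integrin ligand nephronectin, rose from 39.6 ± 17.5 to 153 ± 27.4 CPM (log2FC 2.01 ± 0.19 SE). The 2 antisense genes AC097478.1 and AP002954.1 rose by 2.17 and 2.07. IGHG4 was listed with a rise of 2.24, but it is a near-identical copy of other immunoglobulin genes and the assignment of its reads is uncertain.

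Among BH3-only genes, 4 of 8 were higher and 2 lower by adjusted p, and 1 was regulated. Of all genes tested, 19.6% were higher and 18.8% lower by adjusted p. BMF, a BH3-only protein that promotes apoptosis, was at 23.6, 15.9 and 7.14 CPM after trastuzumab and at 63.6, 53.5 and 57.8 CPM after trastuzumab + afatinib (log2FC 2.0 ± 0.26 SE, adjusted p = 1.72e-05). No library of one group reached the range of the other. BCL2L11, which encodes BIM, had a log2FC of 0.26, BBC3 of 0.36 and HRK of 0.84, all higher by adjusted p, while BID (-0.70) and PMAIP1 (-0.57) were lower. Of 6 survival and effector genes of the BCL2 family, 4 were lower by adjusted p, among them BCL2 (log2FC -0.83) and MCL1 (-0.48), and none was regulated. TNFSF15, a cytokine of the TNF family, was at 2.67, 3.08 and 2.33 CPM and at 10.9, 9.94 and 14.1 CPM (log2FC 2.10 ± 0.24 SE), and IL11 fell by 1.38 on the log2 scale. CXCL8 was the 1 regulated chemokine of 10, where 4.86% of all genes tested were regulated. It was at 0.67 ± 0.23 and 0.30 ± 0.15 CPM (log2FC -1.13 ± 0.35 SE, adjusted p = 0.0157), and without replicate 3 the log2FC was -0.54 (adjusted p = 0.25).

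The proliferation genes went lower by less than 1 log2 unit, so none of them was called regulated, but they did so together. Of 42 genes of G2 and mitosis, 37 were lower by adjusted p and none higher, with a median log2FC of -0.45. Of all genes tested, 18.8% were lower by adjusted p. PLK1, the mitotic kinase, was at 308, 340 and 321 CPM after trastuzumab and at 198, 207 and 160 CPM after trastuzumab + afatinib (log2FC -0.79 ± 0.10 SE, adjusted p = 1.55e-05). Of 41 genes of S phase, 34 were lower and none higher, with a median of -0.41. GINS2, part of the replicative helicase, fell from 33.2 ± 3.77 to 18.7 ± 3.72 CPM (log2FC -0.84 ± 0.12 SE). Of 28 genes of ribosome biogenesis, 26 were lower and none higher, with a median of -0.57, and NOP56, a core protein of box C/D particles, fell from 271 ± 40.6 to 151 ± 8.20 CPM (log2FC -0.84 ± 0.10 SE). With scaling by library size alone, 27 of 42, 26 of 41 and 24 of 28 genes were lower and the medians were -0.31, -0.27 and -0.43. Without replicate 3 the counts were 26, 24 and 22. Of 23 genes of glycolysis and the pentose phosphate route, 10 were lower and 2 higher, and without replicate 3 these were 4 and 1.

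Single metabolic and lysosomal genes were regulated higher. CD36, a fatty acid transporter, rose from 0.36 ± 0.06 to 1.53 ± 0.59 CPM and FABP3 from 9.09 ± 1.2 to 18.7 ± 2.79 CPM, the latter with a log2FC of 1.04 that was 0.87 without replicate 3. In the list of fatty acid oxidation and PPAR targets, 10 of 20 were higher and 2 lower by adjusted p, the latter PPARG itself (log2FC -0.39) and UCP2 (-0.61). Of all genes tested, 19.6% were higher and 18.8% lower by adjusted p. Of 21 genes around the insulin receptor, PI3K and FOXO, 11 were higher and 5 lower, the latter near the share of all genes. The 2 regulated genes were TXNIP, a brake on glucose uptake (log2FC 1.07), and PDK4, which shuts pyruvate out of the citrate cycle (1.10). Both dropped below the limit without replicate 3, at 0.86 and 0.98. INSIG1, which holds the sterol sensor in the endoplasmic reticulum, rose by 1.33 and was the 1 regulated gene of 30 in cholesterol and fatty acid synthesis, a share near the 3.75% of all genes. Of 27 lysosome and autophagy genes, 14 were higher and 1 lower, with CTSS (1.37) and ATG9B (1.33) regulated, but without replicate 3 the number was 5 and without replicate 1 it was 7. ATG9B itself was at 0.93 without replicate 3 and no longer regulated.

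Genes in the lists of interferon response and of stomach and gut differentiation were higher in part. Of 23 interferon-stimulated genes tested, 11 were higher by adjusted p and none lower, with a median of 0.48. Of all genes tested, 19.6% were higher by adjusted p. GBP2, a GTPase of cell-autonomous defence, was at 19.3, 15.9 and 13.3 CPM after trastuzumab and at 52.2, 43.1 and 68.9 CPM after trastuzumab + afatinib (log2FC 1.75 ± 0.18 SE, adjusted p = 3.97e-06). IFI27 and XAF1 rose by 1.11 and 1.03, and they were no longer regulated without replicate 3, at 0.73 and 0.76. Of 12 genes in the list of MHC class I presentation and CD274, 4 were higher and none was regulated, and CD274, which encodes PD-L1, had a log2FC of 0.57 ± 0.40 SE (adjusted p = 0.28). In the list of 20 differentiation genes of stomach and gut, 5 were regulated higher and 1 lower, where 3.75% and 1.11% of all genes tested were. LRP2, the endocytic receptor megalin, was counted in this list and is grouped with transport genes further below. It was at 9.03, 6.38 and 10.3 CPM and at 32.2, 31.6 and 52.6 CPM (log2FC 2.16 ± 0.13 SE, adjusted p = 2.59e-08). AOC1, a diamine oxidase, rose by 1.96, and the cell surface mucin MUC1 went from 20.6 ± 1.79 to 47.2 ± 8.30 CPM (log2FC 1.18 ± 0.14 SE). PSCA was at 5.49, 6.21 and 7.47 CPM and at 12.9, 9.07 and 37.4 CPM, with a log2FC of 1.43 that was 0.90 without replicate 3. AGR2 rose by 1.67 at levels below 1 CPM, and without replicate 3 its log2FC was 1.26 with an adjusted p of 0.13. TFF2, a trefoil peptide, fell by 1.07, and by 0.82 without replicate 3.

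Some genes known from stromal and blood cells rose as well. LUM, COL3A1, PDGFRB, DCN and CDH5 were regulated, all higher, of 11 other-cell markers tested, whose median log2FC of 0.79 was the highest of all lists. For comparison, 3.75% of all genes tested were regulated higher and 1.11% lower. LUM, a matrix proteoglycan, was at 146, 149 and 88.8 CPM after trastuzumab and at 315, 263 and 319 CPM after trastuzumab + afatinib (log2FC 1.24 ± 0.18 SE), and without replicate 3 it was 0.96. COL3A1 and PDGFRB rose by 1.43 and 1.48 to means of 7.76 and 8.73 CPM, and DCN and CDH5 by 2.28 and 2.45 at levels of at most 1.2 and 0.83 CPM. Among 28 surface genes of blood lineages, CD36, CSF1R (1.42) and MME (1.26) were regulated higher and IL7R (-1.13) lower. IL7R was at -0.91 without replicate 3 and at -0.99 with library size alone, and then no longer regulated. In a bulk sample, fewer cells of a type and less RNA per cell cannot be told apart, and this holds for all changes given here. Among 18 genes of proteases and motility, MMP13 (1.88) and MMP7 (1.03) were regulated higher and F3 lower. MMP7 was at 0.93 without replicate 1 and at 0.92 without replicate 1 of trastuzumab, below the limit. Of 18 squamous genes, DSG3 (1.26) was regulated, from 0.39 ± 0.24 to 0.94 ± 0.39 CPM, with groups that overlapped. The call of DSG3 was lost without replicate 3 (0.92, adjusted p = 0.21 in edgeR), without replicate 3 of trastuzumab and without replicate 1 of trastuzumab + afatinib. AEN was the 1 regulated gene of 17 p53 targets, with a log2FC of -1.10, and without replicate 3 it was -0.87. The shares of the squamous genes (1 of 18) and of the p53 targets were near the 4.86% of all genes that were regulated.

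**Figure D3:**
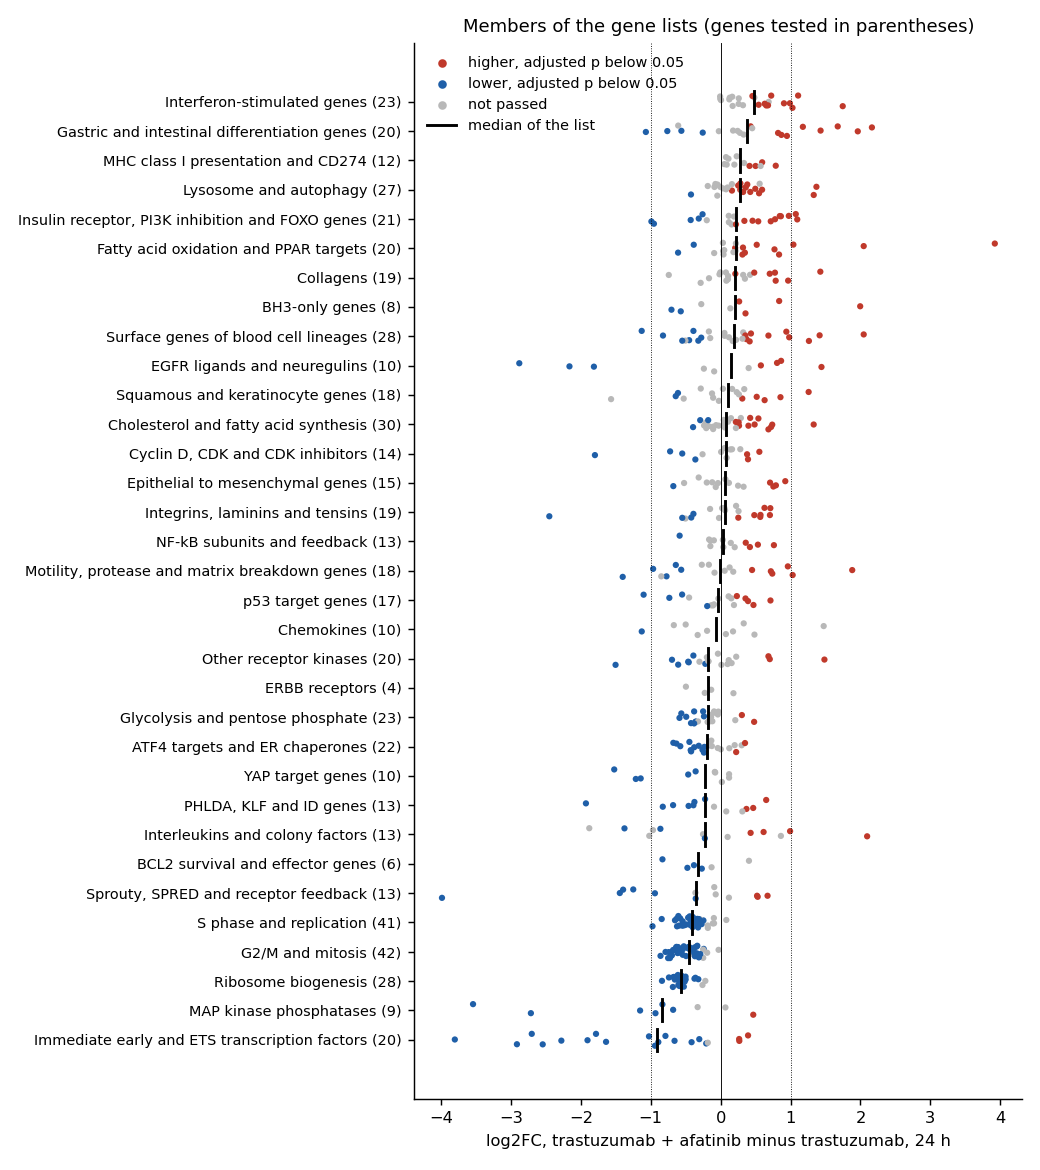
Each point is the log2FC between trastuzumab + afatinib and trastuzumab of 1 gene at 24 h (horizontal axis), grouped by gene list with the number of genes tested in parentheses; red and blue points passed an adjusted p of 0.05 and black bars are list medians. Medians of the lists shown run from -0.92 for the immediate early and ETS factors to 0.48 for the interferon-stimulated genes, and the marker checks of cell types are not plotted.

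The lists held 677 distinct genes, of which 605 were tested. The other 72 were below the count filter, 41 of them listed at 0 in all 132 libraries.

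Promoter sequence was set beside the strongest changes. RefSeq promoters (GRCh38.p14, 250 bases before to 50 after the annotated start) existed for 13 of the 24 genes that rose or fell most, and 6 of these held at least 1 of 5 motifs searched on both strands: AP-1 (TGANTCA), FOXO (GTAAACA), ETS (CCGGAAG), CRE (TGACGTC) and the CArG box bound by serum response factor. In these promoters no match of one motif overlapped a match of another. The promoters of EGR1, AREG, SELENOP and GPNMB are printed 5′ to 3′ in the direction of the gene with the motif in capitals: 2 CArG boxes 105 and 83 bases before the start of EGR1 (chr5:138465229-138465528, plus strand), a CRE that reads as itself on both strands 65 bases before the start of AREG (chr4:74444886-74445185, plus strand), a FOXO motif 45 bases before that of SELENOP (chr5:42811843-42812142, minus strand) and an AP-1 motif 134 bases before that of GPNMB (chr7:23246525-23246824, plus strand).
EGR1: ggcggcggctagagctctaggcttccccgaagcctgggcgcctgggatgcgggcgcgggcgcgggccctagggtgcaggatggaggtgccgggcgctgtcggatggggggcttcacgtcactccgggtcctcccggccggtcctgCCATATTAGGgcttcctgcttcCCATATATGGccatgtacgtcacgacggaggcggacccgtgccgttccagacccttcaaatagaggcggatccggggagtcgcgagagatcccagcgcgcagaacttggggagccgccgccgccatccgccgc
AREG: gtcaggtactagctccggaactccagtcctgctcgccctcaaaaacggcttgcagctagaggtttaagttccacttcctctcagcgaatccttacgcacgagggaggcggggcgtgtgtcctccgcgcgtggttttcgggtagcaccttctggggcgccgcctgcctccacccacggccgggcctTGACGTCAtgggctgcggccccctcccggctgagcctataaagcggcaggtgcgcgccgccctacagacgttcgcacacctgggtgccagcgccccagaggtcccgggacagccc
SELENOP: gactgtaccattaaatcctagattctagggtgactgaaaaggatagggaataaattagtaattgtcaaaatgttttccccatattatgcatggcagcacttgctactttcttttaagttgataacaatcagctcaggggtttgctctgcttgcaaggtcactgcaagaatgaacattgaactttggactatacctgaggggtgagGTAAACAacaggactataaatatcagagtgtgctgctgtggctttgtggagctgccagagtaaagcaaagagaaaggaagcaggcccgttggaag
GPNMB: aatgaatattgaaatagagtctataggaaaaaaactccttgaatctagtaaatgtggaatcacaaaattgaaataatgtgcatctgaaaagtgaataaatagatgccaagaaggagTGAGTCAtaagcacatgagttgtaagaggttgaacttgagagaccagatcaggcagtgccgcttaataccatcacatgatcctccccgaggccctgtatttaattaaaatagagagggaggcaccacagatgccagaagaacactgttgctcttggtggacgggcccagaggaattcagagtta
LMO1 and TNFSF15 held an AP-1 motif 99 and 120 bases before their starts. No match was found for KANK4, LRP2, NPNT, BMF, SPRY4, DUSP6 and EREG. Over all regulated genes with a promoter, the AP-1 letters were in 11.0% of 381 higher and 15% of 113 lower genes, in 5.31% of the genes tested and in 7.76% of all 27305 promoters. The CRE letters were in 2.10% of the higher and 9.73% of the lower genes, against 5.15% of the genes tested and 3.63% of all promoters. The FOXO letters were in 3.94% of the higher and 0.885% of the lower genes, against 2.56% and 3.41%. The ETS letters were in 3.15% and 6.19% of them, against 16.2% and 10.7%, and CArG boxes in 0.787% and 1.77%, against 1.06% and 1.29%. These shares are descriptions of the letters, and a match is not a binding site.

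The effect of afatinib was then compared with and without trastuzumab. Afatinib against untreated cells gave 903 regulated genes (4.65%; 3.52% higher and 1.13% lower), and 574 genes were called in both comparisons, 440 higher and 134 lower in each, which is 60.7% of the first and 63.6% of the second list. No gene was called in opposite directions. Of the 945 genes regulated on trastuzumab, 926 had the same sign and 721 an adjusted p below 0.05 with the same sign in the absence of trastuzumab, where 35.5% of all genes had one. The libraries of the comparisons are different, but they were estimated in one model and share the replicate numbers. In separate models of 6 libraries each, the counts were 798 and 751, with 514 genes in common (64.4% and 68.4%) in the same direction. SELENOP had a log2FC of 3.11 with and 3.10 without trastuzumab, GPNMB of 2.45 and 2.46, and BMF of 2.0 and 2.02.

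The difference between both effects was tested gene by gene as an interaction. No gene differed at an adjusted p below 0.05 in edgeR (percentage called 0; smallest adjusted p 0.984). In the same test 286 genes (1.47%) had an unadjusted p below 0.05, fewer than the 971 expected by chance. The absence of calls therefore does not show that both effects are equal. DESeq2 also gave 0 genes, and 210 at an unadjusted p below 0.05. For 432 of the 945 regulated genes the 95% confidence interval of the difference lay within 1 log2 unit on either side of 0, and for the other genes the interval reached beyond it. The median size of the difference was 0.24 and the median half-width of its interval 0.81. EGR1 had log2FC of -3.80 with and -4.74 without trastuzumab (difference 0.94, interval 0.04 to 1.83). Untreated EGR1 levels were 242, 120 and 294 CPM and those after trastuzumab 69.4, 87.6 and 268 CPM. DUSP6 (-3.54 and -4.18; interval of the difference -0.65 to 1.93), AREG (-2.88 and -3.19; -0.70 to 1.32) and CCND1 (-1.80 and -1.94; -0.46 to 0.74) had intervals that contained 0. All 12 of the strongest falls had a difference above 0, from 0.04 to 0.94, that is a smaller fall on trastuzumab, and none of these differences passed the test. Trastuzumab against untreated cells and trastuzumab + afatinib against afatinib gave 0 regulated genes in edgeR (percentage called 0 in each). At an unadjusted p below 0.05 they gave 248 (1.28%) and 365 genes (1.88%), also fewer than the 971 expected by chance.

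**Figure D4:**
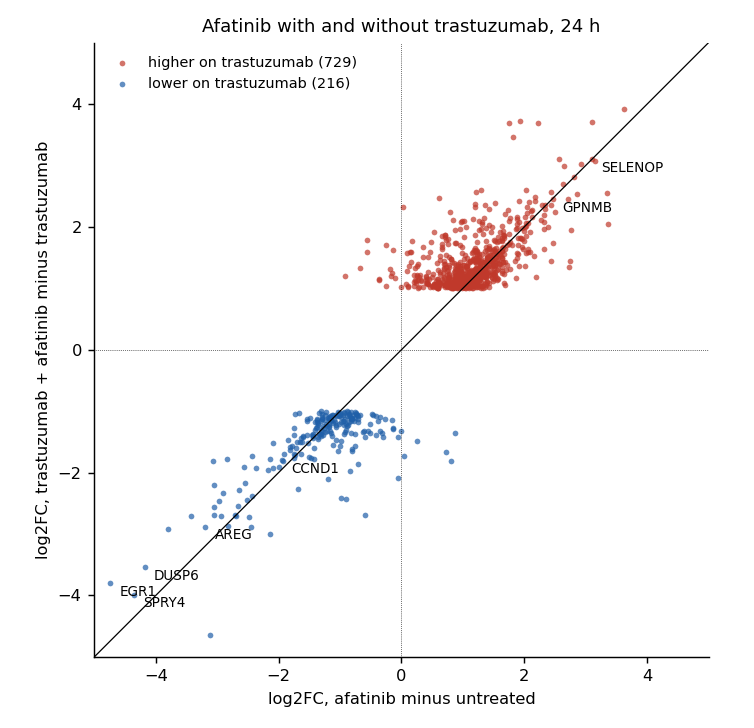
For the 945 regulated genes, the log2FC of trastuzumab + afatinib against trastuzumab (vertical axis) is plotted against that of afatinib against untreated cells (horizontal axis), with the line of equal effects; 926 points lie in the quadrants of equal sign. The genes were chosen for the vertical axis, so the cloud has no points between -1 and 1 there.

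The same contrast at 4 h showed which changes were early. After 4 h, 169 genes (0.853%) were regulated, 53 (0.267%) higher and 116 (0.585%) lower, and 70 of them were regulated in the same direction at 24 h, which is 41.4% of the genes at 4 h and 7.09% of the 987 genes at 24 h in that model of both times. A further gene was regulated in the opposite direction. Between 24 h and 4 h the effect differed for 354 genes (1.79%; edgeR interaction in a model of 42 libraries, adjusted p below 0.05 and a difference above 1 on the log2 scale), 268 (1.35%) toward higher and 86 (0.434%) toward lower values at 24 h. Without replicate 3 the count was 179 and without the replicate block 156. Of the 12 strongest falls, 11 were regulated at 4 h as well. SPRY4 had a log2FC of -3.99 ± 0.31 SE at 4 h, DUSP6 of -3.79 ± 0.32, EGR1 of -3.71 ± 0.31 and AREG of -2.40 ± 0.22, and the difference between the times did not pass the test for any of these 4 genes. ETV5 fell further with time, from -1.17 ± 0.14 SE at 4 h (difference -1.39 ± 0.21 SE, adjusted p = 1.55e-05), as did MYEOV from -0.87 ± 0.14 SE (difference -1.53 ± 0.20 SE) and ETV1 from -0.90 ± 0.19 SE (difference -1.02 ± 0.28 SE).

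Of the 12 strongest rises, 8 differed between the times, all toward higher values at 24 h, and BMF was the 1 gene regulated at 4 h (log2FC 1.43 ± 0.31 SE). The difference did not pass the test for BMF, IGHG4, AC097478.1 and AP002954.1, and the last 3 had log2FC of 2.90 ± 1.07 SE, 1.31 ± 0.44 SE and 1.23 ± 0.62 SE at 4 h. LRP2 had a log2FC of -0.06 ± 0.13 SE at 4 h (difference 2.21 ± 0.17 SE, adjusted p = 1.25e-10), GPNMB of 0.36 ± 0.20 SE (difference 2.08 ± 0.25 SE) and TNFSF15 of -0.67 ± 0.28 SE (difference 2.76 ± 0.34 SE). BIRC3, an inhibitor of apoptosis that NF-kB induces, was lower at 4 h (log2FC -0.86 ± 0.07 SE) and higher at 24 h (0.76 ± 0.08 SE), and NAV3 went from -1.45 ± 0.12 SE to 0.62 ± 0.13 SE. PCDH7 went from -0.25 ± 0.05 SE to 0.68 ± 0.07 SE. LRP2, BIRC3, NAV3 and PCDH7 were among the genes with the smallest adjusted p of the difference.

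The proliferation lists belonged to the later changes too. The median log2FC of the G2 and mitosis genes was 0.07 at 4 h and -0.45 at 24 h, and 38 of 42 differed between the times by adjusted p, where 19.5% of all genes did. For the S phase genes the medians were 0.01 and -0.41 with 31 of 41 genes different, and for ribosome biogenesis -0.16 and -0.57 with 21 of 28. The phosphatases had medians of -1.10 at 4 h and -0.83 at 24 h, and 2 of 9 differed. The immediate early and ETS factors had medians of -0.96 and -0.92 with 9 of 20 different, and in the interferon-stimulated genes the medians were 0.07 and 0.48 with 9 of 23 different.

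**Figure D5:**
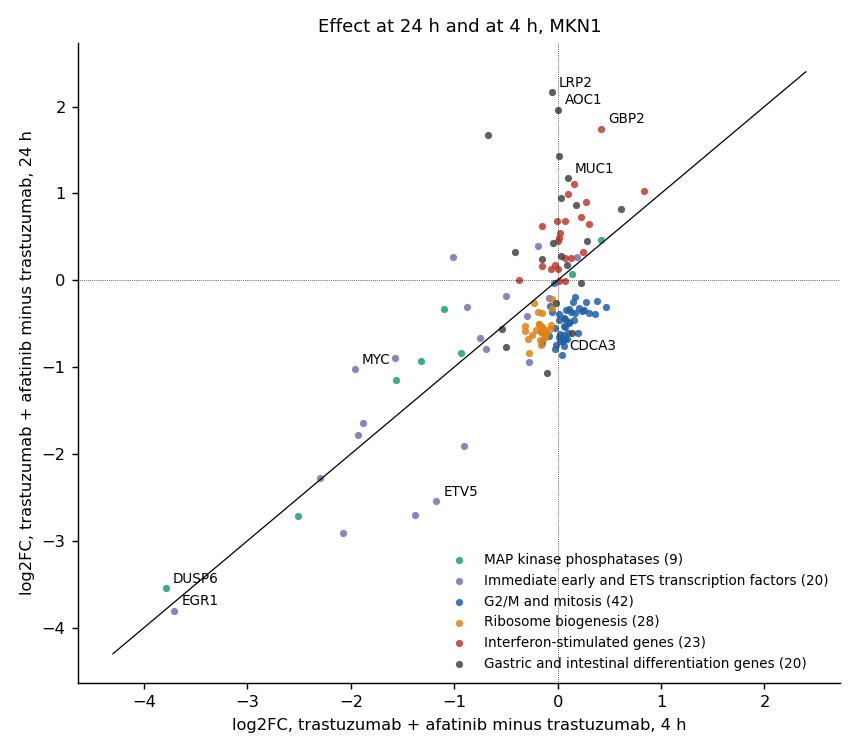
The log2FC of trastuzumab + afatinib against trastuzumab at 24 h (vertical axis) is plotted against that at 4 h (horizontal axis) for the members of 6 gene lists, with the line of equal effects. DUSP6 and EGR1 lie near the line, while the 42 genes of G2 and mitosis lie near 0 at 4 h and below 0 at 24 h, and LRP2, AOC1 and GBP2 lie above the line.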

How the data were processed

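Directional poly(A) libraries were sequenced in pairs of reads, and the submitters' processing notes name Trim Galore, STAR and the hg38 genome. The counter and its annotation are not given in the sources used here. The authors deposited raw read counts per gene, 1 file per library with 65217 identifiers, of which 8404 (0.04% of counts) had no entry in GENCODE 29, the source of names and positions. Whether counting used strand is not given, so antisense and overlapping genes are uncertain.

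Counts of 21 MKN1 libraries at 24 h (42367058 to 58947017 per library) were fitted with edgeR 4.0.16 (R 4.3.3; quasi-likelihood test; TMM scaling; 19426 genes kept by filterByExpr at a minimum count of 10) with treatment and replicate number as terms. Times were compared in a model of 42 libraries (19815 genes). SE was the log2FC divided by the square root of F. CPM are TMM-normalized. Confidence intervals are at 95%. The steps were tested on simulated data. Alternatives were DESeq2 1.42.0, other normalization, filters and samples.

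The libraries and gene lists were chosen with earlier results of these data known. Named were list members that were regulated, the HER receptors, the 12 largest rises and falls with a mean log2 CPM above 1 and the same direction in 3 pairs, and the 5 smallest adjusted p of each difference. Other list members named in the text were chosen after their values were seen. Some named genes are not reported here.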

Additional observations from a re-analysis of the deposited data

Results flagged for a closer look

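The effect of afatinib on trastuzumab was not the same at 24 h and 4 h for 354 genes, 268 toward higher and 86 toward lower values at 24 h, by edgeR's interaction test. Among the 111 tested genes named in the report, 30 were in this group, 27 toward higher and 3 toward lower values. The differences given here are log2FC at 24 h minus log2FC at 4 h. Genes of transport and lipid metabolism were SELENOP (3.34), CD36 (2.09), LRP2 (2.21) and INSIG1 (1.03). Genes of the cell surface, matrix and proteases were GPNMB (2.08), NPNT (1.85), LUM (1.21), COL3A1 (1.5), PDGFRB (1.34), CSF1R (1.21), MME (1.24), MMP13 (2.69) and MMP7 (1.14). Genes of differentiation of stomach and gut were AGR2 (2.34), AOC1 (1.95), MUC1 (1.07) and PSCA (1.41). Ligands, immune and survival genes were TNFSF15 (2.76), NRG4 (1.52), GBP2 (1.32), BIRC3 (1.61) and CTSS (1.43). The remaining genes toward higher values were KANK4 (2.02), NAV3 (2.06), LMO1 (1.89), POU2F3 (1.88) and ETS1 (1.27). Those toward lower values were MYEOV (-1.53), ETV5 (-1.39) and ETV1 (-1.02). AGR2 was below 1 CPM after trastuzumab, and its SE of the difference was 0.81. No explanation of these differences was tested.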

How the results depend on the processing

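The replicate number was kept as a block as given by the comparison. Same-numbered libraries of the groups deviated together weakly in pairs 1 and 3 and not in pair 2. Their r was 0.17, -0.01 and 0.11, and that of other numbers -0.17 to 0.05. What same-numbered libraries share was not tested. With no replicate block 843 genes were regulated (652 higher, 191 lower), and 156 differed between 24 h and 4 h (127 higher, 29 lower). By adjusted p alone 7471 genes (3810 higher, 3661 lower) differed in the 24 h comparison and 3855 (1651, 2204) between the times. With at least 10 counts in every library, 490 genes were regulated (354 higher, 136 lower) and 42 were lower at 24 h than at 4 h, the latter also 42 with the compared groups only. Leaving out replicates gave 464 to 1088 regulated genes (338 to 943 higher, 126 to 277 lower, single libraries included, which gave 639 to 1188 in all) and 179 to 400 genes between the times (140 to 287 higher, 39 to 113 lower), the lowest without replicate 3 each time. Tested against a log2FC of 1 (glmTreat), 72 genes were regulated (49 higher, 23 lower). DESeq2 gave 901 and 329 genes. The difference with and without trastuzumab was 0 genes in all alternatives run. Of 82 named genes none changed direction in the 15 alternatives run for them. Without replicate 3, 18 were no longer regulated, without replicate 3 of trastuzumab 14 and of trastuzumab + afatinib 11, with library size alone 5. IFI27 and MMP7 also lost the call without replicate 1, CXCL8 and XAF1 without replicate 2, and MYC and CXCL8 with the compared groups only. The cause was not tested. Genes near 3 counts per library are limited by depth.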
